A study of Mus musculus with 6 samples.

Results

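This account covers the 1343 rows of the deposited expression table that carry at least 1 Ensembl identifier but no gene symbol. They were chosen by the symbol column being empty and the identifier column holding a mouse Ensembl identifier, whatever their values, and they make up 10.6% of the 12615 rows. Of the other rows, 10280 have a symbol and 992 have neither a symbol nor an identifier. Both groups were mouse Ba/F3 cells, an IL-3-dependent pro-B cell line, transduced with a pMSCV-IRES-GFP retroviral vector and grown in IL-3 at 1 ng/ml. One group carried human calreticulin (hCALR) and the other hCALR with the type 1 mutation (hCALR-del52), a deletion found in myeloproliferative neoplasms, with 3 replicates each and 6 samples in all. Each group is a transduced line, so the construct and the line that carries it cannot be told apart, and nothing in the labels says whether replicates were separate cultures. Fewer cells of a kind and less RNA per cell cannot be told apart either. The table gives 1 FPKM value per group (fragments mapped to a gene, corrected for its length and for the total mapped), so no group value has an SD, and how deeply each sample was sequenced is unknown. Where 2 FPKM values follow a gene without their groups, the first is hCALR and the second hCALR-del52.

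The label of these rows was checked against the GENCODE mouse annotation of the same genome build. A gene identifier stood in 1338 rows and a transcript identifier alone in 5. In 1295 rows there was 1 identifier and in 48 there were several, up to 10. At least 1 identifier was found in the annotation for 1206 rows, which gave each a name and a gene type, so the missing symbol belongs to the deposited table and most of these genes do have names. The identifiers of the other 137 rows were not found there and are left unnamed. By type, 497 rows were long noncoding RNA genes, 388 were pseudogenes, 256 were small RNA genes and 20 were protein-coding genes. A further 48 rows held several identifiers.

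Long noncoding RNAs are transcripts that code for no known protein, and many of them start near, or run opposite to, a protein-coding gene. Processed pseudogenes are copies of mRNAs that were written back into the genome, and so resemble the genes they came from. Small nucleolar RNAs (snoRNAs) guide chemical modification of ribosomal RNA and are usually cut out of introns of host genes. MicroRNAs (miRNAs) are about the shortest of these RNAs, are cut from longer primary transcripts and repress mRNAs that match their seed. In blood cells, miR-223 is known as a myeloid miRNA, and the miR-17-92 cluster is known for its part in B cell development.

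The 4 printed promoters belong to rows that passed the authors' test, and RefSeq (GRCm38.p6) held no entry used here for the other called rows. Each runs from 250 bases before to 50 bases after the start of the gene in RefSeq, on the plus strand. For F730016J06Rik the GENCODE annotation starts the gene at 28095477, beyond the end of the printed window. Capitals mark AGATAA, a motif bound by GATA factors, and TTCNNNGAA, a motif bound by STAT factors, searched on both strands. F730016J06Rik lies at chr2:28095095-28095394, Scarletltr at chr9:64080511-64080810, A630023P12Rik at chr5:110514673-110514972 and 4930412C18Rik at chr4:9770335-9770634.
F730016J06Rik: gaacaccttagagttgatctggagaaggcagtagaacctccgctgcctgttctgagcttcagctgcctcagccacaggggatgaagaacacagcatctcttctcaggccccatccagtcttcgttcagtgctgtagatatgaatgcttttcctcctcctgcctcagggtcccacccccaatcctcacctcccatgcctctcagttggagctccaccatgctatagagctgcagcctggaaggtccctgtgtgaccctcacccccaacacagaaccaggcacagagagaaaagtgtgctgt
Scarletltr: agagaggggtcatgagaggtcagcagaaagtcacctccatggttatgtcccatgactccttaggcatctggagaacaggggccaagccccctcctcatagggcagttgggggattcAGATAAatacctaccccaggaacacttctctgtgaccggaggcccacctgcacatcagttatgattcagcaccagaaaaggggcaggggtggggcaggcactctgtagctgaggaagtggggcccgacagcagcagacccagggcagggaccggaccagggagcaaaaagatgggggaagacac
A630023P12Rik: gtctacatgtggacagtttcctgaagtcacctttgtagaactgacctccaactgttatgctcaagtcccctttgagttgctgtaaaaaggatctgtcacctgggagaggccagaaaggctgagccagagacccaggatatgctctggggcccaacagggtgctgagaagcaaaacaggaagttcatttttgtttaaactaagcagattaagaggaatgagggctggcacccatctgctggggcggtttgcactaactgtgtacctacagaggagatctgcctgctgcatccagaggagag
4930412C18Rik: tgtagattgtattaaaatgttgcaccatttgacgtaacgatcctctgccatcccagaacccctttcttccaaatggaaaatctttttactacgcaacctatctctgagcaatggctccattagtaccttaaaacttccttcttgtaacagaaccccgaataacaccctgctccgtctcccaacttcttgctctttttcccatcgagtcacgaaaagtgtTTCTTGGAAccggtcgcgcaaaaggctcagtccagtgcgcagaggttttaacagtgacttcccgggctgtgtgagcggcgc
The Scarletltr window held 1 AGATAA, 134 bases before the start of the gene, and the 4930412C18Rik window held 1 TTCNNNGAA, 31 bases before it. Neither motif was found in the other windows. Across all 32851 promoters of the same length, 11.2% held AGATAA and 8.30% held TTCNNNGAA.

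The mature miRNAs below come from rows that hold miRNA genes known in blood cells, and they are grouped so that shared seeds stand together. Capitals mark the seed, bases 2 to 8, and the sequences are from RefSeq (GRCm38.p6). Of 86 miRNA genes in 77 rows, 39 genes in 29 rows were matched to a mature sequence.
mmu-miR-223-3p: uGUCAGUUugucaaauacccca
mmu-miR-17-5p: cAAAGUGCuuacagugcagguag
mmu-miR-20a-5p: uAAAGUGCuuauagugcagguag
mmu-miR-18a-5p: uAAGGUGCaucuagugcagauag
mmu-miR-19a-3p: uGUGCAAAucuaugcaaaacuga
mmu-miR-19b-3p: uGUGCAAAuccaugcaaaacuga
mmu-miR-92a-3p: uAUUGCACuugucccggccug
mmu-miR-15a-5p: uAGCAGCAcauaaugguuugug
mmu-miR-16-5p: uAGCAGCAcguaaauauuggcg
mmu-miR-322-5p: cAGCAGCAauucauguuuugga
mmu-miR-29b-3p: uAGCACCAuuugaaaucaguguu
mmu-miR-29c-3p: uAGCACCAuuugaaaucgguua
mmu-miR-221-3p: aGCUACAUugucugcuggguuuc
mmu-miR-222-3p: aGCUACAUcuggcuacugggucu
The seed AAAGUGC was shared by miR-17-5p and miR-20a-5p, GUGCAAA by miR-19a-3p and miR-19b-3p, and AGCAGCA by miR-15a-5p, miR-16-5p and miR-322-5p. The seed AGCACCA was shared by miR-29b-3p and miR-29c-3p, and GCUACAU by miR-221-3p and miR-222-3p.

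A small group of noncoding genes differed between the lines. With the authors' q-value (their p-value adjusted for many tests) under 0.05 as the threshold, 9 of the 1343 rows were called in the authors' deposited table (0.67%), against 1.84% of all rows and 1.78% of rows with a symbol. Of these, 3 were higher in hCALR-del52 cells (0.223% of the 1343, against 0.872% of all rows) and 6 were lower (0.447%, against 0.967%). Long noncoding RNA genes made up 7 of the 9, with 3 higher and 4 lower. The other calls were 1 processed pseudogene and 1 row of T cell receptor delta segments, both lower. No small RNA, protein-coding or unannotated row was called. An unadjusted p under 0.05 stood in the authors' deposited table for 46 of the 1343 rows (3.43%), against 452 of 10280 rows with a symbol (4.40%).

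**Figure D1:**
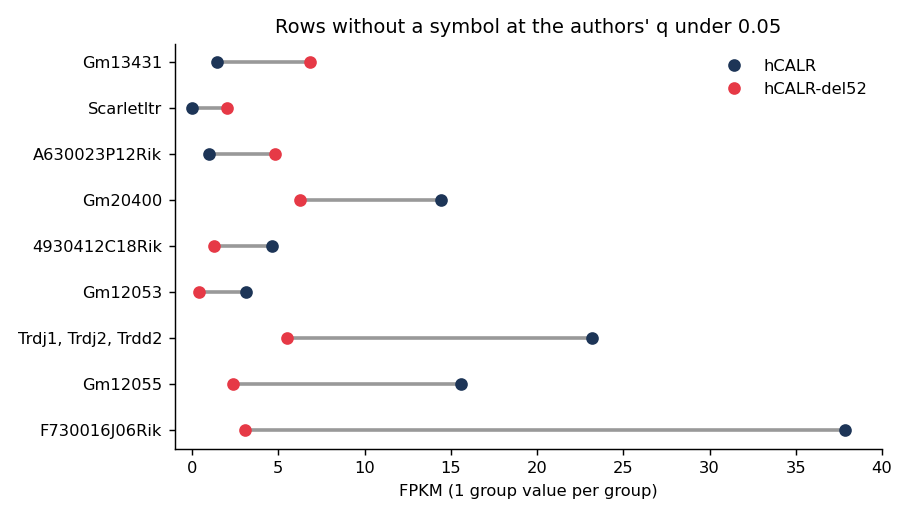
FPKM (linear axis) of the 9 called rows in hCALR and hCALR-del52 cells, 1 authors' value per group with no error bar. The 6 rows that were lower in hCALR-del52 cells include F730016J06Rik, and the 3 that were higher are A630023P12Rik, Gm13431 and Scarletltr.

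The largest ratio among called rows with both values above 0 was that of F730016J06Rik, a long intergenic noncoding RNA gene (lincRNA; ENSMUSG00000086425) on chromosome 2, whose deposited interval runs from 28092032 to 28144602 (mm10). Its level was 37.8 FPKM with hCALR and 3.09 FPKM with hCALR-del52, 12.2-fold lower, with a log2 fold change of -3.61 and q = 0.00161 in the authors' deposited table. This is the smallest q there, shared by 115 rows, 5 of them among the 1343, so it does not rank those rows. The annotated gene is on the plus strand, from 28095477 to 28127731, with exons of 6880 bases. None of its 4 neighbouring rows within 200 kb was called. The nearest row outside its interval, 28702 bases away and without an identifier, read 52.7 and 7.49 FPKM with q = 0.890 in the authors' deposited table. The Gm13371 row, which has the same interval and is another of the rows without a symbol, read 4.06 and 1.15 FPKM. Col5a1, a fibrillar collagen gene 52454 bases away, read 309 and 240 FPKM.

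On chromosome 11 a pair of adjacent rows were both lower in hCALR-del52 cells. The lincRNA gene Gm12055 (ENSMUSG00000085979, interval 22640237 to 22733657) read 15.6 FPKM with hCALR and 2.40 FPKM with hCALR-del52, 6.52-fold lower, with q = 0.00161 in the authors' deposited table. The processed pseudogene Gm12053 (ENSMUSG00000083008, interval 22625976 to 22639380) read 3.14 and 0.417 FPKM, 7.53-fold lower, also with q = 0.00161 in the authors' deposited table. Their deposited intervals lie 857 bases apart, but the annotated genes are smaller and farther apart. Gm12053 is annotated from 22626375 to 22626664 and Gm12055 from 22729897 to 22732986, both on the minus strand. Where in each interval the fragments mapped is not known. The next row, Gm12056, lies 148 bases beyond Gm12055 and read 19.4 and 13.2 FPKM without passing the test, and Commd1, a gene of copper metabolism and protein sorting, read 209 and 190 FPKM. Within 200 kb, each was the only called neighbour of the other.

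The row of T cell receptor delta joining and diversity segments (Trdj1, Trdj2 and Trdd2, chromosome 14, 54121549 to 54147549) read 23.2 FPKM with hCALR and 5.51 FPKM with hCALR-del52, 4.21-fold lower, with q = 0.00161 in the authors' deposited table. These segments are joined during T cell development to make the delta chain of the receptor. Of its 5 neighbouring rows, 3 were also called lower in the authors' deposited table. Among them, Trdv4 (a delta variable segment) read 16.8 and 3.50 FPKM, and Trdv5 read 4.75 and 1.44 FPKM. The genes beyond the receptor locus, Dad1 (a subunit of the N-glycosylation enzyme) and Abhd4 (a lipase), read 59.4 and 48.8 FPKM and 51.5 and 50.0 FPKM, and neither passed the test.

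The other lower rows were 4930412C18Rik and Gm20400. The noncoding gene 4930412C18Rik (ENSMUSG00000085558, chromosome 4, 9751219 to 9823411) read 4.64 and 1.27 FPKM, 3.66-fold lower, with q = 0.00545 in the authors' deposited table. Its only neighbour within 200 kb, Asph (aspartate beta-hydroxylase), read 63.0 and 34.8 FPKM with q = 0.129 in the authors' deposited table. Gm20400 (ENSMUSG00000092500, chromosome 6, 142085761 to 142208521) is annotated opposite to Slco1a6, an organic anion transporter gene. It read 14.5 and 6.28 FPKM, 2.30-fold lower, with q = 0.0381 in the authors' deposited table. Slco1a6 read 2.01 and 2.56 FPKM and was not called. Adjusted over all rows of the table, the p-value of Gm20400 was 0.116, while the other 8 rows stayed under 0.05 (0.596% of the 1343, against 1.36% of all rows adjusted in this way).

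Among the higher rows, the lincRNA gene A630023P12Rik (ENSMUSG00000048215, chromosome 5, 110514923 to 110526170) read 0.965 FPKM with hCALR and 4.78 FPKM with hCALR-del52, 4.95-fold higher, with q = 0.00296 in the authors' deposited table. The lincRNA gene Gm13431 (ENSMUSG00000087187, chromosome 2, 36216777 to 36222934) read 1.45 and 6.84 FPKM, 4.72-fold higher, with q = 0.00892 in the authors' deposited table. Next to Gm13431, Ptgs1, the cyclooxygenase-1 gene, read 78.5 and 102 FPKM and was not called. Scarletltr (ENSMUSG00000093759, chromosome 9, 64080761 to 64086961) is a noncoding gene named from mouse red cell development. It is listed at 0 with hCALR and at 2.03 FPKM with hCALR-del52, with q = 0.00161 in the authors' deposited table. The lowest mean of both group values among all rows of the table is 1.00 FPKM, and that of Scarletltr is 1.02 FPKM. The row is therefore in the table only through its hCALR-del52 value. None of the 10 rows within 200 kb of Scarletltr, among them the ribosomal protein gene Rpl4 at 2471 and 2657 FPKM, was called.

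Markers of other cell types were called in the same table. Both erythroid markers were higher, with a summed level of 59.7 FPKM with hCALR and 644 FPKM with hCALR-del52, and both mast cell markers were lower, at 194 and 61.1 FPKM. The hemoglobin gene Hbb-b1 read 4.33 FPKM with hCALR and 422 FPKM with hCALR-del52, and Hba-a1 read 55.4 and 222 FPKM. The mast cell protease genes Cpa3 and Cma1 read 176 and 54.2 FPKM and 18.0 and 6.86 FPKM. Of 14 markers listed for pro-B and B cells, 2 were in the table, and neither was called. Cd79b (a B cell receptor subunit) read 8.64 and 5.09 FPKM. Ptprc (CD45), which is not limited to B cells, read 83.1 and 60.1 FPKM. It made up most of their sum of 91.7 and 65.2 FPKM. The other 12 of the 14 have no row in the table used here. Of 3 blood progenitor markers, 1 was in it, Myb, at 227 and 145 FPKM and not called. None of 4 fibroblast markers was in it. The part of these differences in the calls above was not tested.

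Just past the threshold, Gm16225 read 3.28 and 12.2 FPKM with q = 0.0556 in the authors' deposited table. Fcor, which codes for a corepressor of Foxo1, read 3.43 and 8.40 FPKM with q = 0.0642 in the authors' deposited table. Neither counts as called.

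The 1343 rows were low. Their median level, as the mean of both group values, was 4.26 FPKM, against 18.2 FPKM for rows with a symbol. In 51.2% of them the larger value was under 5 FPKM, against 15.4% of rows with a symbol. Differences between the groups were centred near 0. The log2 ratio, log2 of (hCALR-del52 + 1)/(hCALR + 1), had a median of -0.00039, with 668 rows above 0 and 675 below. Its median size was 0.18, against 0.13 in rows with a symbol, and 1109 rows lay within 0.5 of 0. Across the 1343 rows the 2 group values correlated with Pearson's r = 0.956 on the log2 scale of FPKM + 1, and across the rows with a symbol with r = 0.982. These are correlations across genes of the same 2 group values, and genes are not independent replicates.

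**Figure D2:**
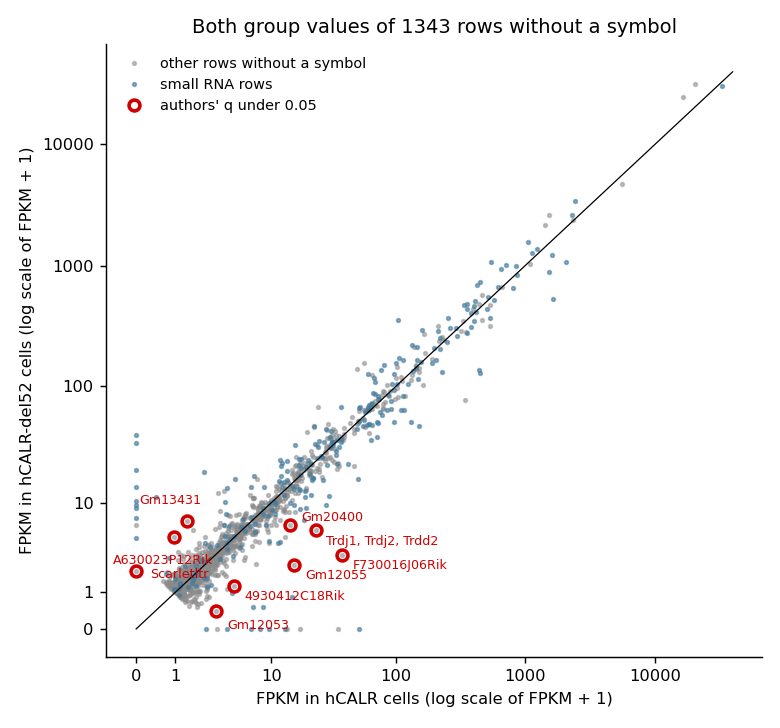
FPKM with hCALR-del52 against FPKM in hCALR cells for the 1343 rows, on log axes of FPKM + 1, with the 9 called rows ringed and the line of equality drawn. Most points lie along the line, and small RNA rows scatter farthest from it.

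Calls were also counted in bands of mean level beside rows with a symbol, and the difference between them was not tested. Below 2 FPKM, 2 of 401 were called, against 40 of 615 rows with a symbol. From 2 to 5 FPKM it was 3 of 320, against 41 of 1095, and from 5 to 20 FPKM 3 of 333, against 61 of 3781. At 20 FPKM or more it was 1 of 289, against 41 of 4789. Of the 1343 rows, 92 differed by at least 2-fold with both values above 0, and 284 of the 10280 rows with a symbol differed by 2-fold. Of the 92, 8 were called, and 31 were genes shorter than 200 bases. How many of the 284 were called was not counted.

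Levels differed by gene type. Small RNA rows had a median of 26.7 FPKM, long noncoding rows 3.55 FPKM, pseudogene rows 2.20 FPKM and protein-coding rows 5.73 FPKM. Among small RNAs, 123 snoRNA rows had a median of 58.6 FPKM and 61 miRNA rows one of 36.8 FPKM. The median size of the log2 ratio was 0.37 in small RNA rows and 0.15 both in long noncoding and in pseudogene rows. The 1 FPKM added to both values shrinks this ratio more at low levels, as in the long noncoding and pseudogene rows. Of 79 lincRNA rows, 4 (5.06%) were called in the authors' deposited table, against 1.41% of all long noncoding rows and 1.84% of all rows of the table. An unadjusted p under 0.05 stood there for 10 lincRNA rows (12.7%), against 3.82% and 4.90%. The difference between these shares was not tested.

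**Figure D3:**
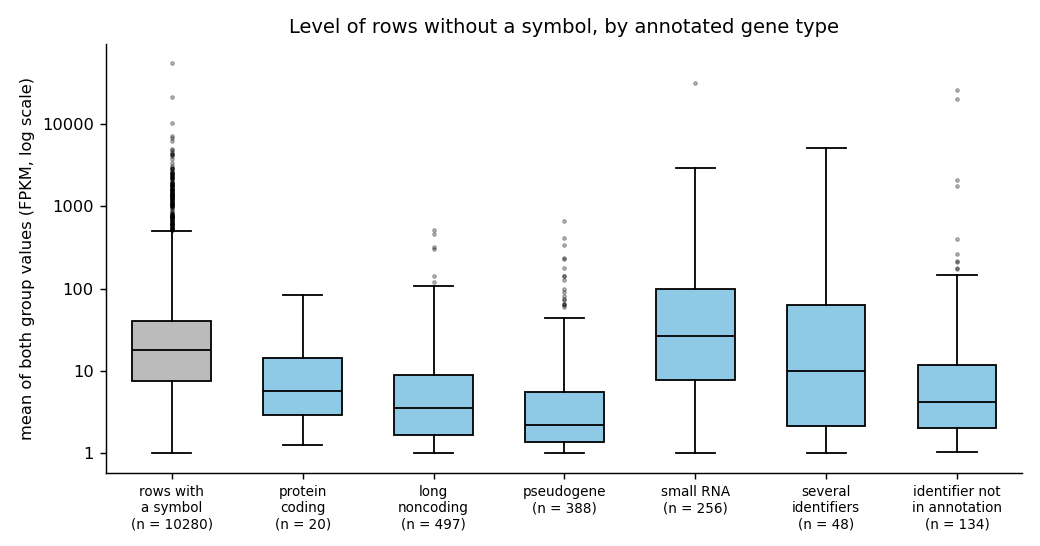
Mean FPKM of both groups for each class of rows without a symbol and for rows with a symbol, on a log axis. Boxes span the quartiles with the median as a line, and dots are rows beyond the whiskers. Small RNA rows sit highest, with a median of 26.7 FPKM, and pseudogene rows lowest, at 2.20 FPKM.

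Several well-known long noncoding RNAs were among these rows, and none of them was called. Neat1, the scaffold of paraspeckles, read 443 FPKM with hCALR and 481 FPKM with hCALR-del52. Malat1, an abundant RNA of nuclear speckles, read 318 and 288 FPKM, and Firre, an X-linked nuclear RNA, 78.5 and 66.1 FPKM. The Firre identifier also stood, with that of Gm14620, on a second row of the same interval, at 5.67 and 5.52 FPKM. Tug1 read 28.6 and 31.2 FPKM, and Ftx, from the X inactivation center, 3.80 and 4.21 FPKM. Trp53cor1, a target of p53 known as lincRNA-p21, read 4.08 and 5.80 FPKM. The row of Gas5, a host of snoRNAs that carried 10 identifiers, read 2323 and 2387 FPKM. Of these, Trp53cor1 had the widest ratio between its group values. Among the protein-coding rows, Mtln (a mitochondrial micropeptide) read 25.0 and 21.9 FPKM, and Nbdy (a microprotein of mRNA decapping) 18.3 and 21.3 FPKM. Cebpd, a C/EBP transcription factor of myeloid cells, read 12.6 and 8.42 FPKM with q = 0.409 in the authors' deposited table.

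The 10 highest rows included mitochondrial tRNA, snoRNA and miRNA genes, the Gas5 row and 4 rows whose length is not known. The mitochondrial proline tRNA gene mt-Tp, 67 bases long, read 33227 FPKM with hCALR and 30626 FPKM with hCALR-del52. A row of 4 mitochondrial tRNA genes read 5591 and 4690 FPKM. The snoRNA gene Gm22744 read 2443 and 3383 FPKM, and the miRNA gene Gm24157 read 2314 and 2632 FPKM. Another snoRNA gene, Gm26202, read 2052 and 1067 FPKM. Of the 17 rows above 1000 FPKM, 10 were genes shorter than 200 bases, and none was called. The rest have no single annotated length, since the highest mean among the 912 genes of at least 200 bases was 662 FPKM. Above 1000 FPKM there were also 101 rows with a symbol, whose calls were not counted. Of the rows whose identifier the annotation used here does not hold, ENSMUSG00000093077 read 20565 and 31411 FPKM and ENSMUSG00000083696 read 16392 and 24596 FPKM, and ENSMUSG00000093154 and ENSMUSG00000089855 were also among the 10 highest.

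Level and ratio differed by gene length. The 85 genes under 100 bases had a median of 180 FPKM and a median log2 ratio of 0.43 in size, and the 164 genes from 100 to under 200 bases had 17.1 FPKM and 0.38. At the other end, the 192 genes of 2000 bases or more had 3.18 FPKM and 0.12. The 1 FPKM added in the ratio shrinks it more in these longer genes, whose levels are lower. FPKM divides by length, so a few fragments give a high value in a very short gene. The group values correlated with r = 0.899 across the 249 genes under 200 bases and with r = 0.973 across the 912 longer ones. In 22 rows 1 group was listed at 0, with 11 in each group, and only Scarletltr among them was called.

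**Figure D4:**
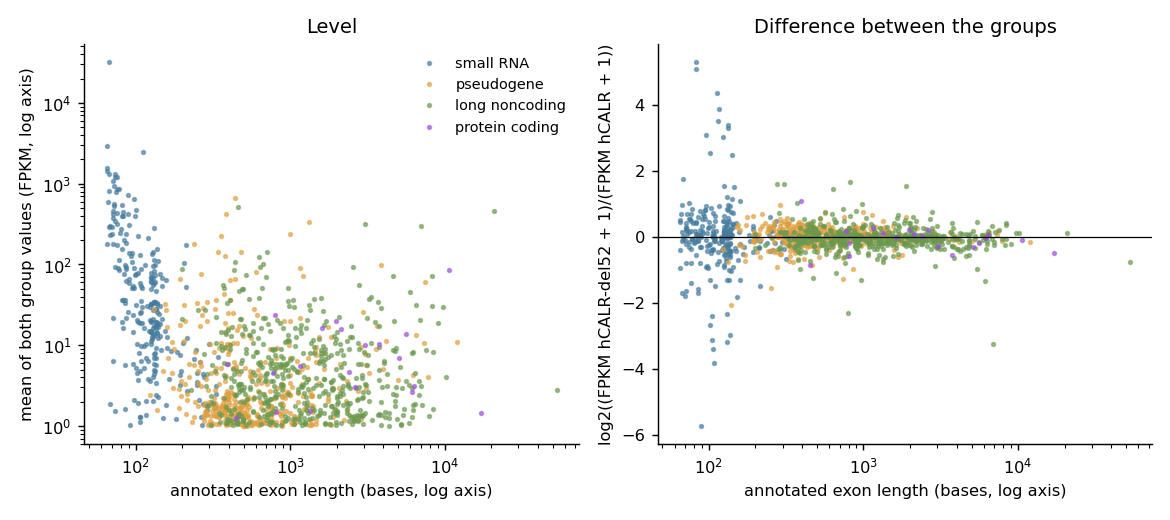
Exon length in bases (log axis) of the rows with 1 annotated identifier, against their mean FPKM and against the log2 ratio of hCALR-del52 over hCALR. Genes under 200 bases hold the highest levels and the widest ratios.

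The levels of rows with miRNA genes whose mature sequences are printed above are those of the whole row. How RNA was selected for sequencing is not known here. These values therefore cannot be read as levels of mature miRNAs. The row of Mir223 and its host F630028O10Rik read 46.5 FPKM with hCALR and 21.3 FPKM with hCALR-del52, with q = 0.232 in the authors' deposited table. The row of the miR-17-92 cluster, with Mir17hg and 6 miRNA genes, read 8.42 and 9.97 FPKM. The Mir29b-2 and Mir29c row read 65.0 and 124 FPKM, and the Mir221 and Mir222 row 6.76 and 3.86 FPKM. The AGCAGCA seed stood on a row of Mir16-1 and Mir15a, at 2.47 and 3.20 FPKM, and on a row with Mir322, at 1.30 and 2.75 FPKM. None of these passed the test. Mir130b is listed at 0 with hCALR and at 38.6 FPKM with hCALR-del52, and was not called either.

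Many of the rows overlap a named gene. Every deposited interval of the 1343 rows was either identical to or apart from that of each row with a symbol, and 741 of them (55.2%) shared an interval with one. The strand column was empty in all 1343 rows. With the annotated gene bodies instead, 591 of the 1161 rows with 1 annotated identifier (50.9%) overlapped a named gene of the table, 171 on the same strand and 428 on the opposite strand. The interval shared was that of a named gene for 333 of 497 long noncoding rows, 189 of 256 small RNA rows and 136 of 388 pseudogene rows. Where reads carry no strand, those of a gene and its antisense partner cannot be told apart.

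Antisense genes were compared with the named gene opposite them, without a test. In 217 pairs the antisense gene had a median of 3.55 FPKM and its partner 23.8 FPKM, and the partner was higher in 199. The log2 ratios of both members correlated with Pearson's r = 0.60 and Spearman's rho = 0.60 across these pairs, and with r = 0.59 when the 2 pairs farthest from the median partner ratio were left out. The pairs share their samples, their locus and possibly their reads. In 1 pair the antisense member was called, in 3 the partner was called, and in no pair were both. The antisense 4930579G18Rik read 7.40 and 2.41 FPKM and its partner Acin1, a nuclear RNA-binding protein gene, 413 and 146 FPKM (q = 0.153 for Acin1 in the authors' deposited table). Gm20531 read 13.1 and 8.23 FPKM and its partner Ptpn6, the SHP-1 phosphatase gene of blood cells, 500 and 322 FPKM. Gm11505 read 1.24 and 3.04 FPKM opposite Mpo (myeloperoxidase) at 3.60 and 6.93 FPKM.

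**Figure D5:**
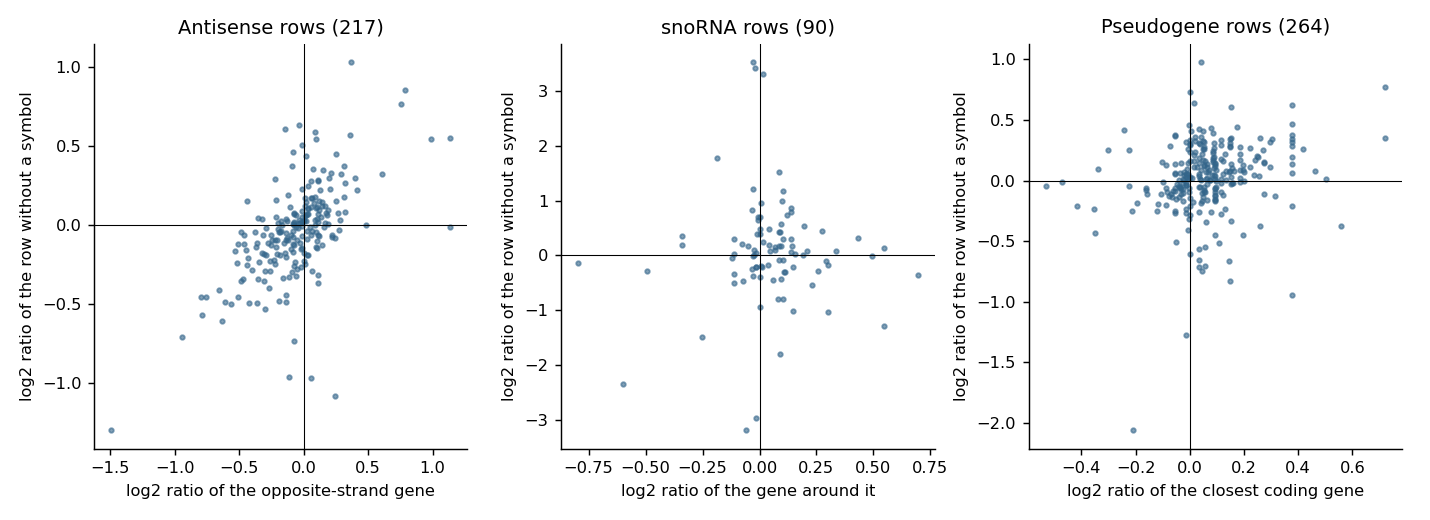
Log2 ratios of hCALR-del52 over hCALR for rows without a symbol against those of a named partner gene, each panel with its own scale. The partner is the overlapping gene for antisense pairs and snoRNA host pairs, and the closest coding gene by sequence for pseudogenes. The 217 antisense pairs slope upward (r = 0.60) and the 90 snoRNA pairs and 264 pseudogene pairs do so less or not at all (r = 0.03 and 0.22).

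The deposited interval of 4 rows was that of a called named gene. Gm13205 read 2.40 and 4.78 FPKM with Casz1, a zinc finger transcription factor gene, at 0.801 and 2.04 FPKM (q = 0.00161 for Casz1 in the authors' deposited table). Gm13822 read 0.988 and 1.91 FPKM with Oasl1, an interferon-induced gene, at 5.77 and 13.9 FPKM. Gm14236 read 1.03 and 1.02 FPKM with Fam65c at 1.50 and 4.50 FPKM, and Gm15873, with Tnni3 (cardiac troponin I), read 1.30 and 1.15 FPKM. None of these 4 rows was itself called.

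SnoRNA genes were set beside the host gene that holds them. In 90 pairs on the same strand the snoRNA gene had a median of 63.3 FPKM and its host 293 FPKM, with the host higher in 74. The median size of the log2 ratio was 0.34 in the snoRNA genes and 0.09 in the hosts, and the ratios correlated with r = 0.03 and rho = -0.009 across pairs. Within the ribosomal protein gene Rpl4, at 2471 and 2657 FPKM, Gm22455 read 228 and 132 FPKM, Gm22571 249 and 234 FPKM and Snord16a 353 and 433 FPKM. Snord110 read 104 and 357 FPKM in Nop56, a snoRNP core protein gene, at 578 and 507 FPKM. None of these snoRNA genes was called, and those within Rpl4 did not share a direction.

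Pseudogene rows were compared with the gene they most resemble. Of 388 pseudogenes, 287 (74.0%) matched a protein-coding gene with at least 90% identity over at least 80% of their length, with a median identity of 97.1%, and for 142 that gene coded for a ribosomal protein. For 264 the parent gene was in the table, and it was higher in 256. The median was 842 FPKM for the parents and 2.14 FPKM for the pseudogenes. No parent was called, and the log2 ratios correlated with r = 0.22 across these pairs. The 45 pseudogenes with at least 99% identity had a median of 5.36 FPKM, the 162 from 95 to 99% one of 1.93 FPKM and the 80 below 95% one of 2.18 FPKM. Gm15772 resembles Rpl26 at 99.5% identity and read 660 and 664 FPKM, near the 596 and 612 FPKM of Rpl26 itself. Gm13394, 99.9% identical to Gapdh (a glycolytic enzyme gene), read 237 and 240 FPKM, against 1009 and 1055 FPKM for Gapdh. Reads of such near-identical copies can be assigned to either gene, so these levels are uncertain.

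On chromosome 17 the rows with a symbol had a median log2 ratio of -0.17, with 412 of 567 below 0. The 56 rows without a symbol there had a median of -0.05, with 33 below 0. None of the 56 was called, against 8 of those 567 rows with a symbol (1.41%) and 0.67% of all 1343 rows. With so few calls among the 1343 rows, none in 56 shows no contrast. Across the other chromosomes with at least 20 rows without a symbol, medians of those rows ran from -0.16 to 0.07. Medians of the rows with a symbol on the same chromosomes ran only from -0.04 (chromosome 19) to 0.02 (chromosome 11). The -0.17 of chromosome 17 lies outside that range. The difference was not tested.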

How the data were processed

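RNA of Ba/F3 cells was sequenced in 3 hCALR and 3 hCALR-del52 replicates, grouped by sample title. Per the submitters' processing notes, Bowtie2 2.1.0, TopHat2 2.0.9 and Cuffdiff 2.1.1 were used with mm10. The authors deposited FPKM as 1 value per group, with the log2 fold change, the p-value, the q-value and the test statistic, a score, of their Cuffdiff comparison. No value per replicate was used, so no test over replicates was made, and each q is the authors' own. The members and lists were chosen with earlier results of these data known.

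Names, types, strands and exon lengths came from GENCODE mouse release 21 (M21). Deposited starts count from 0, and 1 was added. Bidirectional promoter RNAs were counted as long noncoding, and ribozymes and mitochondrial tRNAs as small RNA. Log2 ratios used a pseudocount of 1 FPKM. Pseudogenes were matched to protein-coding transcripts with BLAST 2.17.0 (at least 90% identity over 80% of the length). Tables were made with Python 3.11.15 and pandas 2.3.3. The adjustment of p-values and the search for overlapping intervals were tested on simulated data, and the other steps were not. Rows named are up to 15 called each way by log2 ratio, the 10 highest in mean FPKM and up to 6 that overlap a called named gene. Further rows were chosen for naming with values in view. Alternatives were other q thresholds, FPKM minimums, pseudocounts, overlap rules, single-identifier rows, rows apart from named genes and genes of at least 200 bases.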

Additional observations from a re-analysis of the deposited data

How the results depend on the processing

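No paired analysis was possible because each group has 1 deposited value, which also prevents leaving out a replicate. Of the 9 called rows, 8 kept their call both at q under 0.01 and with p adjusted over all rows. The other alternatives select rows and leave q as it is, so a row that they include keeps its call in any case. The exception was Gm20400, whose q of 0.0381 misses a threshold of 0.01 and whose p adjusted over all rows was 0.116. Lower calls numbered 6, and between 4 and 6 under the alternatives. Gm12053 and 4930412C18Rik are lost where the larger value had to be at least 5 FPKM. The T cell receptor delta row is lost among single-identifier rows. Higher calls numbered 3, and 1 where the larger value had to be at least 5 FPKM, since A630023P12Rik and Scarletltr are below it. The median level of 4.26 FPKM became 3.73 FPKM in rows that share no interval with a named row and 2.92 FPKM in genes of at least 200 bases, an alternative chosen after seeing the data. The share that overlaps a named row, 55.2%, became, over rows with 1 annotated identifier, 23.1% for named rows on the same strand and 50.9% with annotated gene bodies, the latter also chosen after seeing the data. Medians of the log2 ratio stayed between -0.0132 and 0.00216. Precision is limited by the absence of replicate values and of depth, most of all for genes under 200 bases.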

Other observations

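Counting rows with several identifiers, 19 identifiers stood on 2 of the 1343 rows each, 38 rows in all, with the same interval and different values. In 5 of the 1343 rows an identifier also stood on a row with a symbol. Foxd2os read 37.4 and 36.5 FPKM on 1 row and 2.07 and 1.98 FPKM on the other. Gm22566 read 150.6 and 46.3 FPKM on 1 row and 5.91 and 5.47 FPKM on the other.

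For Malat1 the log2 fold change in the authors' deposited table was -0.30, while the log2 of its FPKM ratio was -0.14. In 3 of the 1343 rows these values differed by more than 0.001. The sign also differed for Galnt6os (-0.045 deposited, 0.013 from its FPKM ratio) and ENSMUSG00000092267 (-0.16 and 0.065).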
